A study of Spodoptera frugiperda with 3 samples.

Results

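In the assembled transcriptome of Sf9 cells, 210 single unigenes had lower FPKM in cells with Sf-15 repression and in cells with Sf-15 overexpression than in normal Sf9 cells. A unigene is a non-redundant transcript sequence from the assembly. Those called single here stand alone in it, while those named CL are contigs of a cluster of similar sequences. The 210 members were chosen by the deposited FPKM (fragments scaled to unigene length in kilobases and to the mapped fragments of the library) and raw fragments. A member had a log2 ratio to Sf9 of -1.2 or less in both transfected libraries, with 1 FPKM added on each side, and at least 50 fragments in Sf9. They came from 13260 single unigenes with at least 50 fragments in Sf9, from 30921 single unigenes and from 42041 unigenes in all.

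The ASO library is of cells in which the small nucleolar RNA Sf-15 was repressed by an antisense oligonucleotide, and the Sf-15 library is of cells transfected with a plasmid that drives Sf-15 from the *actinA3* promoter and carries EGFP. Both transfections used Lipofectamine LTX with Plus reagent, and the Sf9 library is of normal cells without a named transfection. The labels write Bm-15, the silkworm name, and give passages 15 to 18 for all the cells. There was 1 library for each of the 3 conditions, so no difference below has a replicate check, and the effect of transfection as such and any effect common to both Sf-15 treatments cannot be told apart. Sf9 is a continuous line from ovarian tissue of the fall armyworm *Spodoptera frugiperda*.

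C/D box small nucleolar RNAs guide the 2′-*O*-methylation of ribosomal and small nuclear RNAs, by base pairing with the target within a particle that holds the methylase Fibrillarin. An antisense oligonucleotide of the gapmer type pairs with its target RNA in the nucleus, and RNase H then cleaves the RNA of the hybrid. The unigenes carry assembly names only. None of them matched the gene table of the *S. frugiperda* reference (0 names), so the functions of the members are not given here and the ovarian origin of the line was not checked by markers. Of the 21 unigenes that the study lists for apoptosis, 14 were single unigenes with at least 50 fragments in Sf9 and 0 were members. That list was chosen for higher expression upon Sf-15 repression, so this number was set by the choice.

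The fragments summed to 19.7 M in ASO, 18.0 M in Sf-15 and 19.6 M in Sf9. A single contig, CL1590.Contig3, took 12.9% of the fragments of ASO and 18.9% of Sf-15, against 1.84% in Sf9. Since FPKM divides by the library total, a larger share of this contig means a lower FPKM for the other unigenes. With library totals that leave it out, 129 of the 210 members stayed within the limits, and with TMM scaling 156 did. Under TMM scaling the log2 ratios moved by 0.25 for Sf-15 against Sf9, and by -0.03 for ASO against Sf9. Leaving this contig out of the totals moved the log2 ratios to Sf9 by 0.173 for ASO and by 0.275 for Sf-15. With no FPKM added, this shift is the same for every other unigene. The effect of the contig on single members was not examined beyond these settings.

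Among the 13260 single unigenes with at least 50 fragments in Sf9, the limit of -1.2 was met by 2.55% in ASO, by 2.66% in Sf-15 and by 1.58% in both, the last being the members. Another 128 met the limit in ASO alone and 143 in Sf-15 alone. The same limits in both libraries were met by 36 contigs of clusters, 0.718% of the 5016 with at least 50 fragments in Sf9. These shares describe the choice, and nothing is read from them. Both comparisons use the same Sf9 library.

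Most members were of moderate abundance in Sf9, and the choice set them lower in the transfected libraries. Their FPKM ran from 0 to 558 in ASO with a median of 3.73, and from 0.120 to 410 in Sf-15 with a median of 3.33, against 3.98 to 1708 in Sf9 with a median of 14.5. In Sf9 the members were thus near the median of all single unigenes with at least 50 fragments, which was 13.1 FPKM. For those unigenes the medians were 12.2 FPKM in ASO and 10.2 FPKM in Sf-15. At least 10 FPKM was reached by 27 members in ASO and by 26 in Sf-15, against 161 in Sf9. In bulk RNA, fewer cells with a transcript and less of the transcript per cell cannot be told apart.

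**Figure D1:**
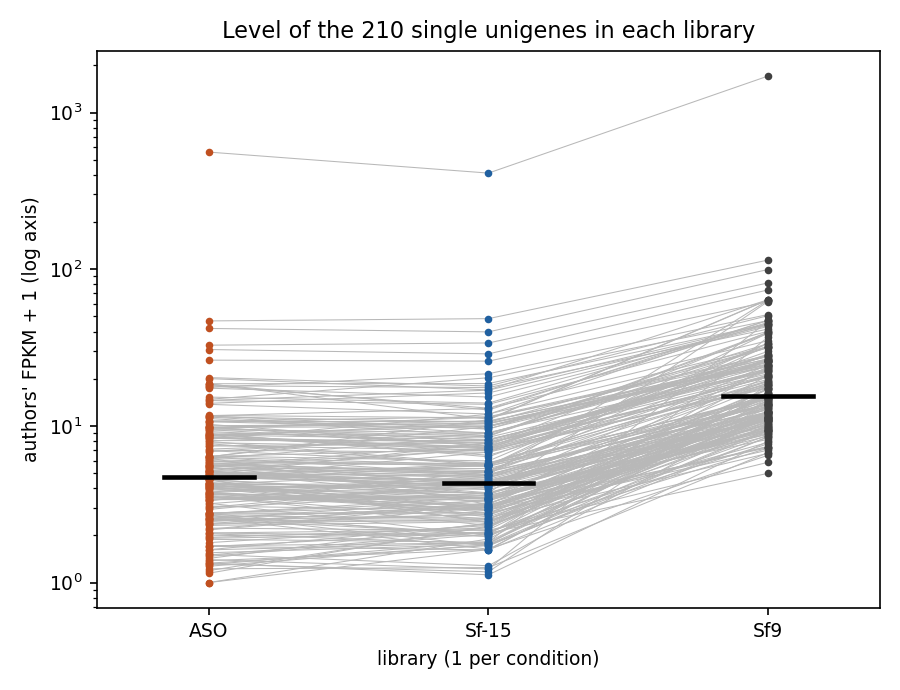
FPKM of each of the 210 members, with 1 added, on a log axis in the ASO, Sf-15 and Sf9 libraries, with lines joining the same unigene and black bars at the medians. Every member is highest in Sf9, as the choice requires.

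The median log2 ratio of the members, with 1 FPKM added, was -1.59 in ASO and -1.71 in Sf-15. Over all single unigenes with at least 50 fragments in Sf9 the medians were -0.14 and -0.31. Most members were lowered moderately. A ratio of -2 or less in both libraries was found for 51 members, of -3 or less for 11 and of -4 or less for 3. Within 0.1 of the limit were 56 members, and 71 single unigenes lay within 0.1 outside it.

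For each member the exact 95% interval of its ratio of fragments per library total, with nothing added, was computed. Such intervals cover counting error only. All 210 intervals lay below 0 in ASO and all 210 in Sf-15, as the choice makes likely, with upper bounds of at most -0.65 and -0.62. In both libraries the interval lay at or under -1.2 for 105 members, while for the other 105 it reached above -1.2 in at least 1 library. The limit itself was set on ratios with 1 FPKM added, which lie nearer to 0. Intervals on that scale were not computed, so counting error may reach across the limit for more members than these.

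Unigene24655 (253 nt) was the most strongly lowered member by the mean of both log2 ratios with 1 FPKM added, which also ranks the 8 lowest. With nothing added, Unigene25675 had a lower ratio in ASO, at 111-fold lower, but from 1 fragment. The interval of its log2 ratio, -12.11 to -4.28, includes all of that of Unigene24655, so their order is not settled. Unigene24655 had 2 fragments in ASO and 1 in Sf-15, against 178 in Sf9. Its ratio of 89.7-fold lower in ASO had an exact interval of the log2 ratio from -9.54 to -4.61, and the interval in Sf-15 was -12.67 to -4.86. Unigene25198 (343 nt) was next, with 6 fragments in ASO and 5 in Sf-15, against 307 in Sf9. Its levels were 0.886 FPKM in ASO and 0.809 FPKM in Sf-15, against 45.7 FPKM in Sf9. Few fragments remained of either in the transfected libraries.

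Unigene11254 (632 nt) and Unigene1303 (345 nt) had the most fragments in Sf9 among the 8 most strongly lowered members. Unigene11254 had 25 fragments in ASO and 31 in Sf-15, against 758 in Sf9. It was 30.6-fold lower in ASO (log2 interval -5.57 to -4.36) and 22.5-fold lower in Sf-15 (-5.06 to -3.97). Both libraries thus held it at a few percent of its level in Sf9, with narrow counting error. Unigene1303 had 16 fragments in ASO and 24 in Sf-15, against 421 in Sf9. It was 26.5-fold lower in ASO and 16.1-fold lower in Sf-15.

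A total of 4 shorter unigenes completed the 8 lowest. Unigene25832 (325 nt) had 2 fragments in ASO and 1 in Sf-15, against 110 in Sf9. Unigene25831 (323 nt), its neighbour by number, had 3 in ASO and 6 in Sf-15, against 146 in Sf9. Both were nearly gone from the transfected libraries. Unigene25167 (248 nt) had 0 fragments in ASO and 4 in Sf-15, against 74 in Sf9, and Unigene25301 (267 nt) had 0 and 3, against 71. These were the 2 members with no fragment in ASO, and no member had 0 fragments in Sf-15. Against a floor of 3 fragments in the library, Unigene25167 was at least 24.9-fold lower and Unigene25301 at least 23.9-fold lower in ASO than in Sf9. The floor leaves out the counting error in Sf9, and the exact intervals of the log2 ratio, which include it, have upper bounds of -4.30 and -4.24.

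Unigene5671 (824 nt) was by far the most abundant member. It had 9077 fragments in ASO and 6081 in Sf-15, against 27564 in Sf9, which were 558 FPKM in ASO and 410 FPKM in Sf-15, against 1708 FPKM in Sf9. It was 3.06-fold lower in ASO (log2 interval -1.65 to -1.58) and 4.17-fold lower in Sf-15 (-2.10 to -2.02). It alone took 0.0460% of the fragments of ASO and 0.0338% of Sf-15, against 0.141% of Sf9. All members together took 0.127% of the fragments of ASO (exact 95% confidence interval 0.126% to 0.129%) and 0.109% of Sf-15 (0.107% to 0.110%), against 0.412% of Sf9 (0.409% to 0.414%). Without Unigene5671 these shares were 0.0815% in ASO and 0.0748% in Sf-15, against 0.271% in Sf9.

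Of the 7 next members by fragments in Sf9, Unigene2670 and Unigene19823 are described with the comparison of Sf-15 and ASO. Unigene3998 (1329 nt) had 1072 fragments in ASO and 929 in Sf-15, against 2564 in Sf9, and was 2.41-fold and 2.54-fold lower. Unigene15415 (1034 nt) had 934 fragments in ASO and 882 in Sf-15, against 2295 in Sf9. Unigene18705 (1156 nt) had 678 and 579, against 1646 in Sf9. Each of these 3 had similar fragments in both transfected libraries. Unigene22200 (1646 nt) had 628 fragments in ASO and 503 in Sf-15, against 1596 in Sf9. Unigene12450 (2590 nt) had 531 and 372, against 1366 in Sf9, and was 2.59-fold lower in ASO and 3.38-fold lower in Sf-15. For the 8 members with the most fragments in Sf9, the intervals span a small part of the distance to 0.

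**Figure D2:**
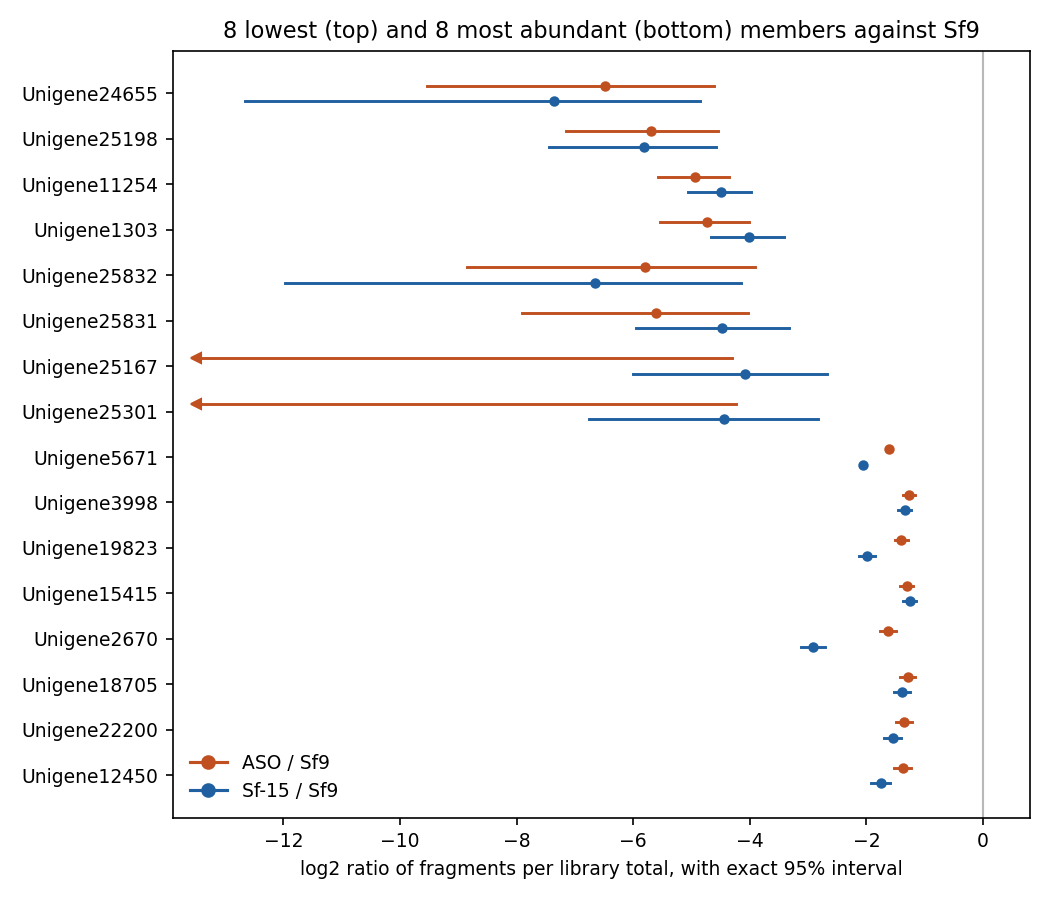
Log2 ratios of fragments per library total for ASO to Sf9 (upper line of each pair) and Sf-15 to Sf9 (lower line), with exact 95% intervals for counting error and arrows for the 2 members with 0 fragments in ASO, whose intervals have no lower bound. At the top are the 8 members with the lowest mean of both log2 ratios after adding 1 FPKM, from Unigene24655. Below them are the 8 with the most fragments in Sf9, from Unigene5671.

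The limit fell among unigenes of about the same values. Just inside it were Unigene15855 (247 nt), Unigene15679 (371 nt) and Unigene22558 (1332 nt). Unigene22558 had 448 fragments in ASO and 397 in Sf-15, against 1056 in Sf9, and was 2.38-fold lower in ASO and 2.45-fold lower in Sf-15. Unigene15855 had 24 and 21, against 61 in Sf9. Just outside were Unigene19344, Unigene14244 and Unigene9333. Unigene9333 (701 nt) had 345 fragments in ASO and 304 in Sf-15, against 803 in Sf9, and was 2.35-fold lower in ASO and 2.43-fold lower in Sf-15. Unigene15679 and the member Unigene17156 (350 nt) had equal fragments, each with 27 in ASO and 22 in Sf-15, against 71 in Sf9. Whether they share fragments is not known.

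The members were short. Their median length was 422 nt, with quartiles of 313 and 604 nt, while the median of all single unigenes with at least 50 fragments in Sf9 was 914 nt, with quartiles of 545 and 1564 nt. Unigenes under 300 nt made up 22.9% of the members and 5.52% of those single unigenes, and unigenes of 300 to below 500 nt made up 37.6% and 15.9%. Conversely, 3 members had 2000 nt or more, 1.43% against 15.9%. The share of single unigenes with at least 50 fragments in Sf9 that were members was 6.56% under 300 nt (48 of 732), 3.75% from 300 nt, 1.49% from 500 nt, 0.381% from 1000 nt and 0.142% from 2000 nt. Length enters FPKM, and at equal fragments adding 1 FPKM shrinks the ratio of a long unigene more, so length is not free of the rule. The shortest members were Unigene29102 (203 nt), with 35 fragments in ASO and 26 in Sf-15, against 88 in Sf9, and Unigene25854 (207 nt), with 16 and 17, against 50.

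**Figure D3:**
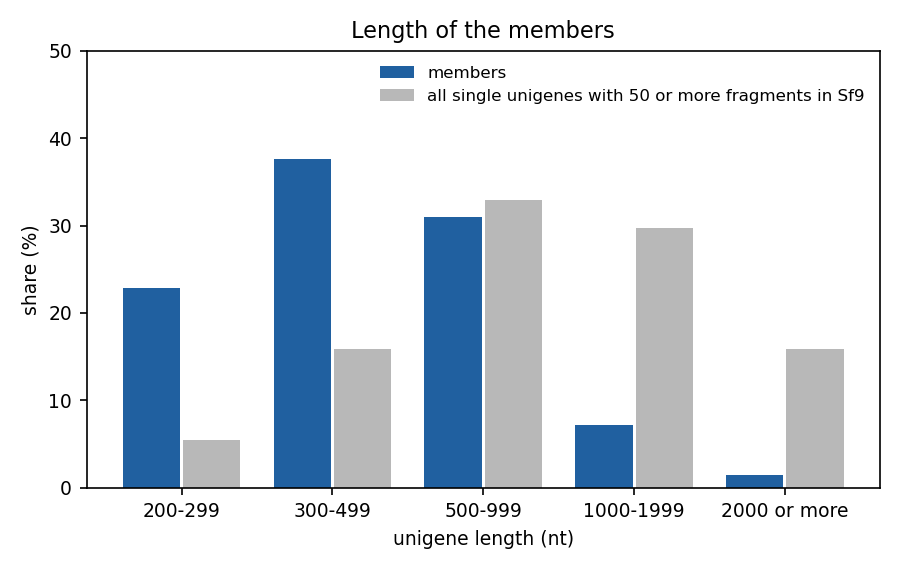
Share of the 210 members (blue, left bar of each pair) and of all 13260 single unigenes with at least 50 fragments in Sf9 (grey, right bar) in each class of unigene length. The members are concentrated below 500 nt, and 3 of them have 2000 nt or more.

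The members were unevenly spread over the assembly numbers, which run up to 30933 for the single unigenes. In the planned blocks of 5000, the members were 0.964% to 1.39% of the single unigenes with at least 50 fragments in Sf9 in each block below 25000. From 25000 to below 30000 they were 60 of 171, which is 35.1% (exact 95% confidence interval 28.0% to 42.7%). From 30000 on they were 0 of 65, for which the exact upper limit is 5.52%. These limits treat the unigenes as independent, which was not checked, and they do not cover the spread between libraries. In finer blocks of 500, chosen after the values were seen, these members lay mostly in 2 adjacent blocks. Members were 21 of 35 such unigenes (60.0%) from 25000 to 25499 and 36 of 71 (50.7%) from 25500 to 25999. No block of 500 outside the numbers 24500 to 27499 held more than 8 members.

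Whole stretches of numbers, and not the members alone, differed between the libraries. The stretch described here was delimited after its low ratios to Sf9 were seen, so its values are a description and no support. Over all 2998 single unigenes numbered 24500 to 27499, the median log2 ratio after adding 1 FPKM was -0.63 in ASO and -0.67 in Sf-15. Of these unigenes, 82.8% had their highest FPKM in Sf9. Over the other 27923 single unigenes the medians were 0.06 and -0.19, and 41.0% had their highest FPKM in Sf9. Of the 2824 single unigenes in this stretch with fewer than 50 fragments in Sf9, 7.47% met the limit of -1.2 in both libraries, and 0.101% of the 14837 elsewhere did. The sources used here do not say what the order of the numbers stands for. The study assembled unigenes from each library, and whether the stretch holds unigenes assembled from Sf9 reads was not tested.

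**Figure D4:**
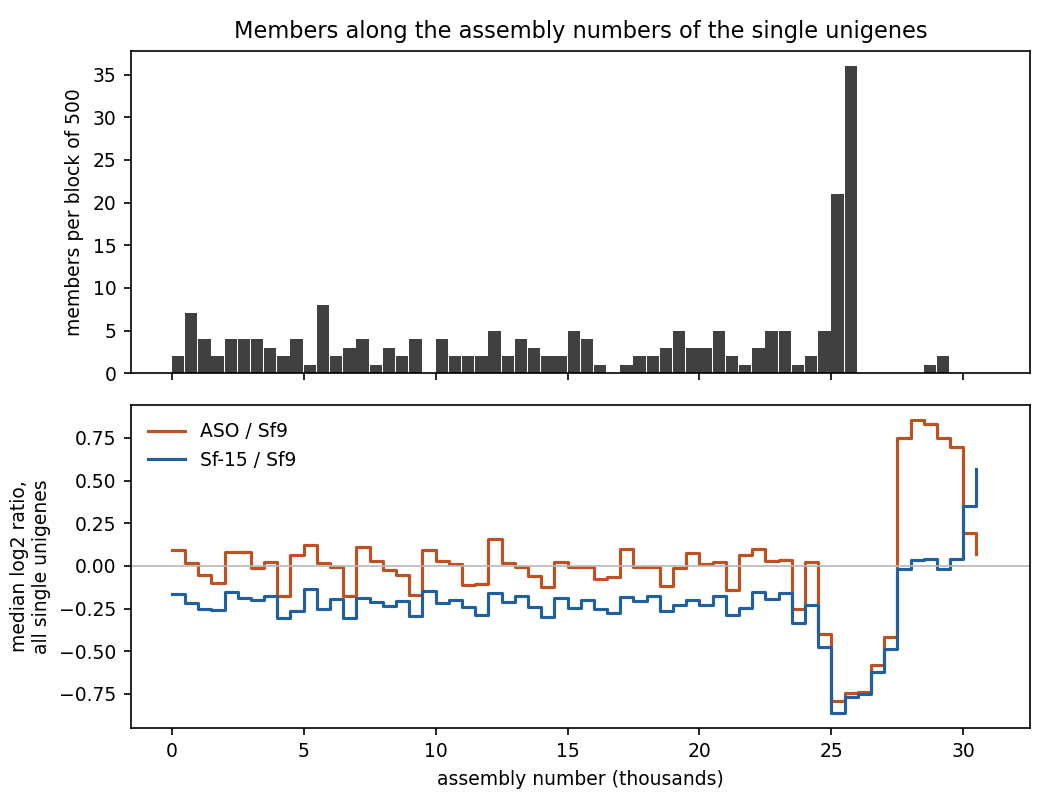
Members per block of 500 assembly numbers (top), and the median log2 ratio over all single unigenes of each block after adding 1 FPKM, for ASO to Sf9 and Sf-15 to Sf9 (bottom). The 2 tall bars are the blocks from 25000 and 25500, with 21 and 36 members, where both medians are also low. Both medians are low too in the blocks from 26000 and 26500, where 0 single unigenes had at least 50 fragments in Sf9 and so 0 could be members.

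The 62 members of this stretch were all numbered below 26000. From 26000 to below 27000, 0 single unigenes had at least 50 fragments in Sf9, and in the remaining block from 27000 there were 13, so few could be members there. The 62 were shorter and more strongly lowered than the other 148. Their median length was 324 nt, against 512.5 nt for the others, and their median level in Sf9 was 67 fragments, against 165.5. Their median log2 ratio was -2.41 in ASO and -2.43 in Sf-15, while it was -1.47 and -1.59 for the others. A ratio of -2 or less in both libraries was found for 37 of the 62 and for 14 of the 148. These differences are descriptive, since the stretch was delimited by the same ratios.

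Members of the stretch often followed each other by number. In all, 23 members stood in 9 runs of adjacent numbers, of at most 3 members each, and 7 of the 9 runs lay between 25167 and 25859. In the 2 blocks from 25000 and 25500, members were 60.0% and 50.7% of the single unigenes with at least 50 fragments in Sf9. How many runs this density alone would give was not computed, nor were runs counted over all those unigenes, so nothing is read from them. In the run, picked after its values were seen, of Unigene25835, Unigene25836 and Unigene25837, Unigene25835 had 6 fragments in ASO and 7 in Sf-15, against 109 in Sf9, and Unigene25836 had 2 and 6, against 93. Unigene25837 had 6 and 4, against 87 in Sf9. Per length they were at 0.616, 0.426 and 1.05 FPKM in ASO and at 0.788, 1.399 and 0.766 FPKM in Sf-15, against 11.3, 19.95 and 15.3 FPKM in Sf9, in the order of their numbers. Whether adjacent unigenes are parts of 1 transcript is not known, since no unigene sequence was analysed here, so the members may stand for fewer than 210 transcripts.

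Outside the stretch, Unigene11254 and Unigene1303 were the only members with a ratio of -3 or less in both libraries. Unigene18150 (475 nt) had 50 fragments in ASO and 85 in Sf-15, against 583 in Sf9, and was 11.8-fold lower in ASO and 6.31-fold lower in Sf-15. Unigene12164 (326 nt) had 15 fragments in ASO and 24 in Sf-15, against 201 in Sf9, and was 13.5-fold and 7.70-fold lower. Other strongly lowered members among these 148 were Unigene2944 (1518 nt) and Unigene10328 (885 nt). Unigene2944 had 147 fragments in ASO and 125 in Sf-15, against 966 in Sf9. Unigene10328 had 117 and 73, against 660. Unigene12164, Unigene2944 and Unigene10328 were singled out after their values were seen. Unigene2944 and Unigene10328 are longer than most members, and Unigene12164 is shorter. The 3 members numbered above 27499 were Unigene28846, Unigene29077 and Unigene29102.

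The members were also described by their ratio of Sf-15 to ASO. With 1 library for each condition and few fragments in most members, it cannot show that their levels were equal. The rule did not fix the direction of this ratio, but it used the FPKM of both libraries. With 1 FPKM added, the log2 ratio of Sf-15 to ASO over the members had a median of -0.06, a lowest value of -0.98 and a highest just under 1, and 84.3% of the members (177) were within 0.5 of 0. Over all single unigenes with at least 50 fragments in Sf9 the median was -0.16 and 80.1% were within 0.5 of 0. The ratio was below 0 for 120 members (57.1%) and for 71.7% of all those unigenes. The median differed between settings. With TMM scaling it was 0.0795 over the 158 unigenes that then met the limits, and 0.09 over all single unigenes with at least 50 fragments in Sf9.

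A ratio of Sf-15 to ASO of 1 or more, on the log2 scale with 1 FPKM added, was found for 0 members, against 0.204% of all single unigenes with at least 50 fragments in Sf9. A ratio of -1 or less was likewise found for 0 members, against 1.72%. These counts hold for the deposited FPKM with 1 added. When the members were chosen anew under each setting, ratios past 1 in size were found for 4 of 158 with TMM scaling, 4 of 166 with median-of-ratios scaling, 3 of 129 without CL1590.Contig3 in the totals and 15 of 296 with 0.1 FPKM added. With a lower FPKM in the transfected libraries, the members have their ratios shrunk more by the added FPKM. Without it, the exact 95% interval for counting error lay above 0 for 9 members, against 7.28%, and below 0 for 13 members, against 39.4%. The remaining 188 intervals included 0. The members had a median of 27 fragments in Sf-15 and 32 in ASO, while the medians of all those unigenes were 160 and 209.5, so smaller differences could be detected among all those unigenes than among the members. At 300 fragments or more in both libraries together, the interval lay above 0 for 2 and below 0 for 7 of 19 members, while it did so for 9.34% and 49.0% of all single unigenes of that class.

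**Figure D5:**
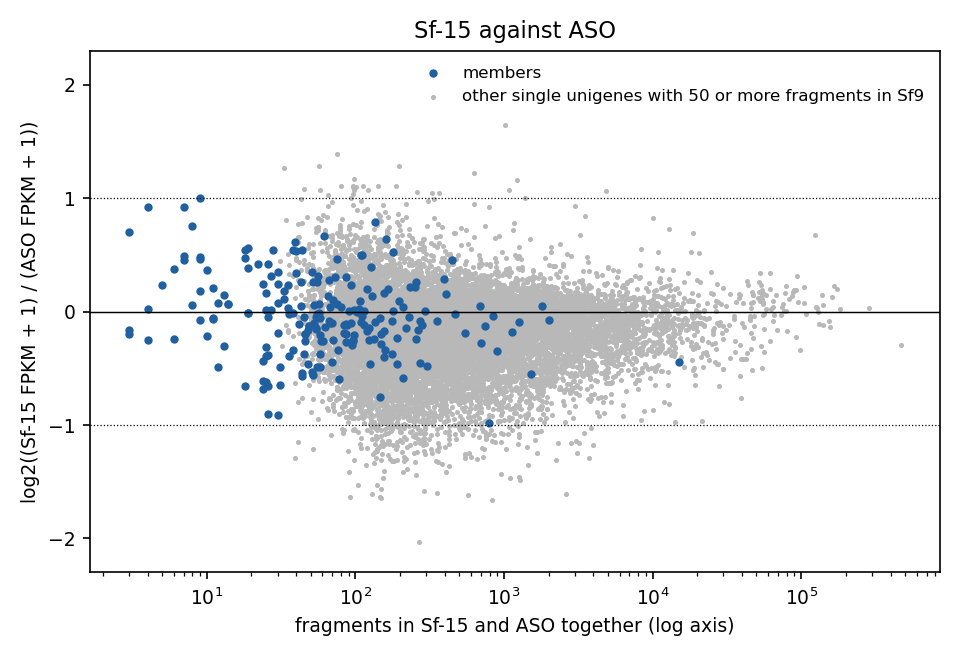
Log2 ratio of Sf-15 to ASO after adding 1 FPKM, against the fragments of both libraries together on a log axis, for the 210 members (blue) and the other single unigenes with at least 50 fragments in Sf9 (grey). Dotted lines mark ratios of 1 and -1, and 0 members lie past them on this scale, while 15 of the 296 chosen with 0.1 FPKM added do on theirs.

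Unigene2670 (5564 nt), the longest member, had the lowest log2 ratio of Sf-15 to ASO of all members with 1 FPKM added, at -0.98. With nothing added, some members with fewer fragments had lower ratios, such as Unigene13624, 2.51-fold lower in Sf-15. Unigene2670 had 216 fragments in Sf-15 and 575 in ASO, and 1773 in Sf9. It was 2.43-fold lower in Sf-15 than in ASO (log2 interval -1.51 to -1.05). Its level was 2.15 FPKM in Sf-15 and 5.23 FPKM in ASO, so that it was lowered 7.55-fold in Sf-15 and 3.11-fold in ASO against Sf9. Unigene19823 (2755 nt), the second in length, had 577 fragments in Sf-15 and 949 in ASO, and 2491 in Sf9. Its log2 ratio of Sf-15 to ASO was -0.59 (-0.74 to -0.43). For Unigene5671 the same interval was -0.49 to -0.40. These abundant members were lower in the Sf-15 library.

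Other members that were lower in Sf-15 per library total had fewer fragments. Their intervals use library totals, on which the interval lay below 0 for 39.4% of all single unigenes with at least 50 fragments in Sf9. TMM scaling moved the log2 ratios to Sf9 by 0.25 for Sf-15 and by -0.03 for ASO. It thus raises every ratio of Sf-15 to ASO, and the intervals were not computed with it. Unigene16276 (277 nt) had 50 fragments in Sf-15 and 96 in ASO, a log2 interval of -1.33 to -0.30. Unigene13624 (314 nt) had 8 and 22, with an interval of -2.70 to -0.11. Unigene25256 (274 nt) had 7 and 19, with an interval that reached 0.004 and so included 0.

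In the other direction, Unigene18150 had 85 fragments in Sf-15 and 50 in ASO, and the interval of its log2 ratio was 0.38 to 1.43. Unigene25675 (343 nt) had 8 fragments in Sf-15 and 1 in ASO, and 110 in Sf9, with an interval of 0.23 to 8.60. Unigene25161 (264 nt) had 6 and 1, and 58 in Sf9. For Unigene25161 and for Unigene25167, with 4 fragments in Sf-15 and 0 in ASO, the interval included 0. A difference between the transfected libraries was not detectable for these 2 at this depth.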

How the data were processed

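Total RNA of 3 samples was sequenced on an Illumina HiSeq 2000. The authors discarded reads with adaptors and duplicated reads, trimmed ends of low quality and built the unigenes with Trinity, TGICL and Phrap. The aligner and counter are not given in the sources used here. The authors deposited raw fragments (counts, not normalized) and FPKM for each pair of libraries. FPKM recomputed from the fragments differed from the deposited FPKM by at most 5.0e-05. The deposited log2 ratios, directions, p-values and false discovery rates of the authors were not used. The 3 tables were joined by unigene name (suffix _All dropped), and a unigene not listed was taken as 0.

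Members, lists and choices were made with earlier results of these data known. Named were the 8 members with the lowest mean of both log2 ratios, the 8 with the most fragments in Sf9, the 4 highest and 4 lowest ratios of Sf-15 to ASO, the 2 longest, the 2 shortest, 3 on each side of the limit and those with 0 fragments. The ratios in these choices have 1 FPKM added. Other members were chosen after their values were seen. Intervals are exact (Clopper-Pearson, 95%), checked on simulated data. With 1 library per condition no p-value is given. Alternatives were other scalings, pseudocounts, fragment minimums and limits. Python 3.11.15, scipy 1.17.1, pandas 2.3.3, edgeR 4.0.16 (TMM) and DESeq2 1.42.0 (size factors only) were used.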

Additional observations from a re-analysis of the deposited data

How the results depend on the processing

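No paired analysis was possible because there was 1 library for each condition. The number of members (210) was 158 with TMM scaling and 166 with median-of-ratios scaling, 156 and 161 of them shared, and 129 with library totals without CL1590.Contig3. It was 296 with 0.1 FPKM added and 74 with 5 FPKM added. A minimum of 20, of 100 and of no fragments in Sf9 gave 349, 125 and 436, a limit of -1 and of -1.5 gave 367 and 98, and intervals at or under -1.2 in both comparisons gave 105. Without the numbers 24500 to 27499, an alternative added after seeing the data, it was 148.

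The median log2 ratio of Sf-15 to ASO (-0.06) was 0.0795 with TMM scaling, 0.0783 with median-of-ratios scaling, 0.00354 without CL1590.Contig3 in the totals, and 0.00529 with 5 FPKM added, so its sign differed between settings. Each setting also chose the members anew, which leaves 158, 166, 129 and 74 unigenes in these values, so the setting and the set changed together. Members with a ratio past 1 in size (0) were 4 of 158 with TMM scaling, 4 of 166 with median-of-ratios scaling, 3 of 129 without CL1590.Contig3 and 15 of 296 with 0.1 FPKM added. The share of fragments taken by the members, with totals without CL1590.Contig3, was 0.146% in ASO and 0.134% in Sf-15, against 0.419% in Sf9. Without Unigene5671, added after seeing the data, it was 0.0815% in ASO and 0.0748% in Sf-15, against 0.271% in Sf9. That it is lower than in Sf9 is set by the choice of members.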

Other observations

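The stretch of assembly numbers after the one rich in members differed in another way. Over the 2496 single unigenes numbered 27500 to 29999, the median log2 ratio to Sf9 after adding 1 FPKM was 0.77 in ASO and 0.01 in Sf-15, with medians of 15.5 fragments in ASO and 7 in Sf-15, against 7 in Sf9. Of the 52 with at least 50 fragments in Sf9, 3 were members, while members were 1.58% of all single unigenes with that minimum. No test was made.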
